A study of Mus musculus with 6 samples.

Results

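The 10 genes described here encode transcription factors of the myeloid lineage, namely Spi1, Irf8, Gfi1, Myb, Id2 and the 5 CCAAT/enhancer-binding protein (C/EBP) genes Cebpa, Cebpb, Cebpd, Cebpe and Cebpg. They were picked by symbol from the deposited expression table, which holds all 10, and they are 10 of the 27179 genes in the table of read counts. RNA-Seq was performed on long-term hematopoietic stem cells (LT-HSCs), sorted as CD150+CD48-LSK cells from the bone marrow (BM) of C57BL/6 mice at 8 weeks of age. From 3 pairs of mice came 3 libraries labelled WT and 3 labelled heterozygous for Foxm1, called Foxm1 HET here, and the comparison asks how loss of 1 Foxm1 allele changes gene expression in these cells. The titles of the Foxm1 HET libraries name a floxed allele, and neither the labels nor the RNA-Seq methods name the Cre driver, which was Tie2-Cre or Mx1-Cre in the study's mice. Tie2-Cre acts in endothelial as well as hematopoietic cells. In other assays of the study the controls carry 1 floxed allele without Cre.

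PU.1, the product of Spi1, and C/EBPα, the product of Cebpa, are the factors that commit early progenitors to granulocytes and monocytes. Irf8 directs monocytes and dendritic cells with PU.1, whereas Gfi1 is a zinc finger repressor that favours granulocytes and restrains HSC cycling. C/EBPε acts late, when granulocytes fill their secondary granules, C/EBPβ and C/EBPδ respond to inflammation and stress, and C/EBPγ lacks an activation domain and pairs with other basic leucine zipper factors. Myb keeps progenitors immature and dividing, and Id2 blocks E proteins, the helix-loop-helix factors of lymphoid development.

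Library totals ran from 14573002 to 25798509 counted reads, and the libraries were far apart from each other. Pearson's r of log2 CPM (the reads of a gene as a share of the scaled library total) over the 8195 genes tested was 0.289 to 0.327 among WT libraries and 0.358 to 0.441 among Foxm1 HET libraries, a description across genes. Pairs with a library of each genotype gave 0.306 to 0.443, as high as pairs of the same genotype. Foxm1 itself had 1182, 2615 and 2942 reads in the WT libraries against 659, 5 and 742 in the Foxm1 HET libraries, each time in the order of replicates 1, 2 and 3, which holds for all values given below. All Foxm1 HET libraries lay below all WT libraries on log2 CPM, and the log2 fold change of -3.30 had an adjusted p of 0.961 in edgeR. Of 16 LT-HSC marker genes, 9 had at least 10 reads in every library. The summed level of the list ran from 3225 to 8159 CPM in WT and from 4440 to 6255 CPM in Foxm1 HET. Such marker sums, here and below, are shares of the unscaled library total. The most abundant LT-HSC markers were Hlf in WT and Kit in Foxm1 HET. Transcripts of 2 sorting markers were nearly absent in several libraries. Slamf1, which encodes CD150, had 2, 1572 and 0 reads in WT against 8, 0 and 543 in Foxm1 HET. Ly6a, which encodes Sca-1, had 125, 4 and 2 reads against 2261, 2 and 1597. Kit, the third, had 10720, 41801 and 14991 reads against 30282, 18773 and 48031. Neutrophil markers were also present, since 9 of 10 had at least 10 reads in every library. Their summed level, led by the granule gene Ngp, was 12768, 5278 and 15759 CPM in WT against 8628, 8398 and 1587 CPM in Foxm1 HET. In such bulk libraries fewer cells of a type and less RNA per cell cannot be told apart.

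Enough reads for a test were found for 8 of the 10 genes, and 0 of these had an adjusted p under 0.05 between genotypes, with 4 higher and 4 lower in Foxm1 HET, and Cebpa and Cebpe were too low. Over all genes, the quasi-likelihood test of edgeR called 27 of 8195, or 0.329% (0.317% higher and 0.0122% lower in Foxm1 HET). At an unadjusted p under 0.05 there were 2 of the 8, Cebpg and Gfi1, both higher in Foxm1 HET, where 6.03% of all genes tested passed in either direction with 3.44% higher and 2.59% lower. The median log2 fold change of the 8 was 0.81 against -0.26 over all genes tested, and it ran from -1.24 without Foxm1 HET replicate 2 to 2.47 without WT replicate 3. No member separated the genotypes on log2 CPM, and 8.68% of all genes tested did, 4.12% with a higher and 4.55% with a lower level in Foxm1 HET. With so few members, a count of 0 does not set them apart from that share. A single library held from 44.3% (Spi1) to 100% (Cebpe) of the summed CPM of a member. WT replicate 3 held the highest CPM of 4 members, Foxm1 HET replicate 2 of 3, Foxm1 HET replicate 1 of 2 and WT replicate 1 of 1.

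**Figure D1:**
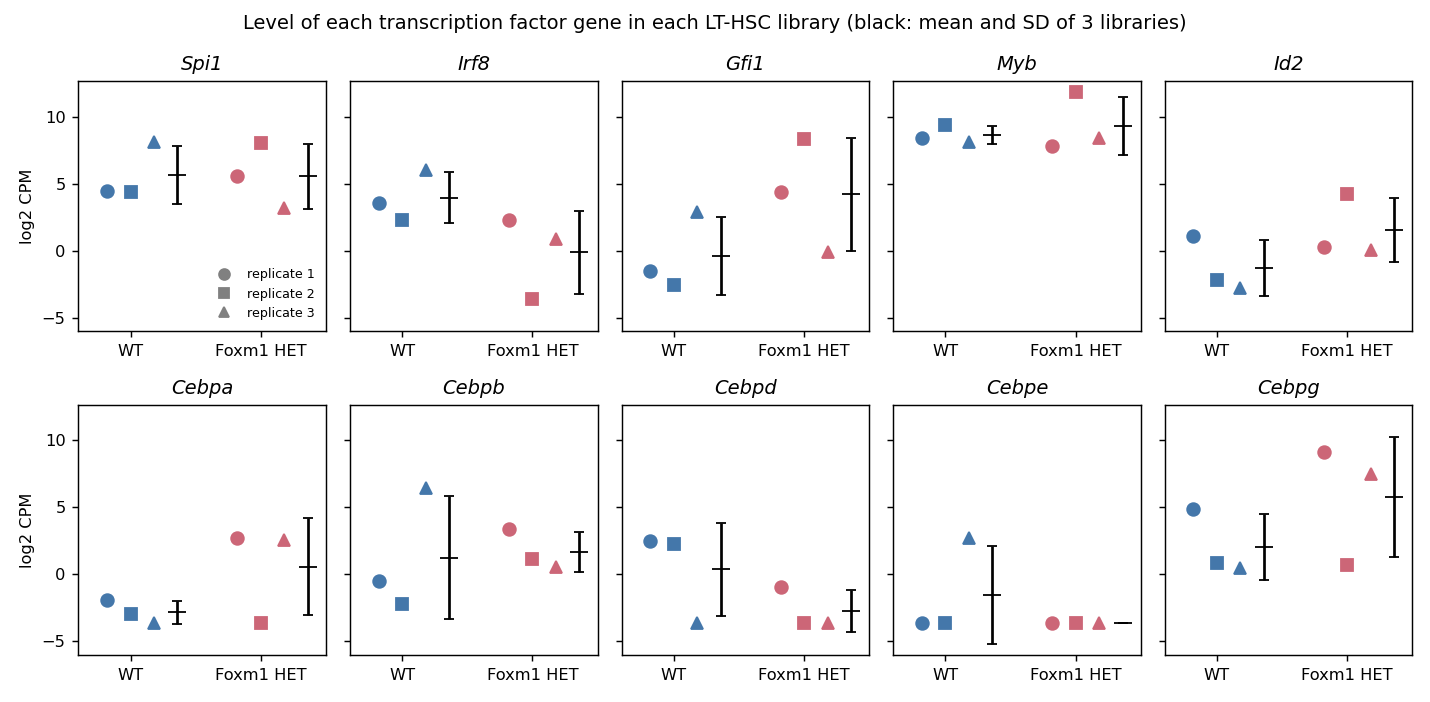
Each panel plots log2 CPM of a gene in the 6 libraries (blue, WT; red, Foxm1 HET; marker shape, replicate number), with the mean and SD of each genotype in black. Myb sits between 7.79 and 11.81 in all libraries, whereas Gfi1 runs from -2.56 to 8.31 and no gene separates the genotypes.

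Spi1 (chr2:91096797-91115756 of GRCm38, plus strand, 5 exon blocks in the count annotation) encodes PU.1. Read counts for Spi1 were 483, 465 and 4502 in WT against 1763, 1657 and 368 in Foxm1 HET. WT replicate 3 and Foxm1 HET replicate 2 stood high at 281 and 256 CPM, Foxm1 HET replicate 3 stood lowest at 8.80 CPM, and the genotypes overlapped. On log2 CPM the average of Spi1 was 5.65 ± 2.15 (SD, n = 3) in WT against 5.56 ± 2.43 (SD, n = 3) in Foxm1 HET, and edgeR gave a log2 fold change of -0.06 (standard error, SE, 1.90, edgeR adjusted p 0.998). This difference was far smaller than the spread between libraries and had no stable sign. Without WT replicate 3 the log2 fold change was 2.26, and without Foxm1 HET replicate 2 it was -1.89.

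Irf8 (chr8:120736376-120756694, plus strand, 9 exon blocks) had 253, 108 and 1025 reads in WT against 187, 0 and 74 in Foxm1 HET. The library with 0 reads, Foxm1 HET replicate 2, allows a level of up to 0.206 CPM of the unscaled library total, taking 3 reads as the limit of a count of 0. On the scaled total the limit is higher, as 10 reads of Cebpg in this library were 1.54 CPM. On log2 CPM the WT libraries were at 3.53, 2.28 and 6.00 and the Foxm1 HET libraries at 2.32, -3.62 and 0.89, so that only Foxm1 HET replicate 1 reached above the lowest WT library. The log2 fold change was -3.58 (SE 3.11, edgeR adjusted p 0.985), and it lay between -4.72 and -1.89 when each library was left out, with the smallest decrease without WT replicate 3.

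The near-separation of Irf8 depended on the scale. In the authors' normalized table, on a log2 scale, Irf8 was 2.94, 2.37 and 5.34 in WT against 1.23, 0.18 and 0.79 in Foxm1 HET, with no overlap (p = 0.1 by exact permutation, two-sided, the lowest p that 20 ways to split the libraries can give). Among all genes so measured 3.77% were likewise lower in every Foxm1 HET library. With RLE scaling in place of TMM the genotypes also parted, as did 4.73% of all genes tested in the same direction. Of the exon bases of Irf8, 20.6% also belong to another annotated gene in the count annotation, so its counts are uncertain.

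Gfi1 (chr5:107716655-107724343, minus strand, 6 exon blocks) had 6, 2 and 118 reads in WT against 786, 2053 and 36 in Foxm1 HET. Foxm1 HET replicates 1 and 2 stood above every WT library at 4.37 and 8.31 log2 CPM. Foxm1 HET replicate 3, at -0.09, lay below WT replicate 3 at 2.90, so the genotypes overlapped. The log2 fold change was 5.45 (SE 2.65, edgeR p 0.0399 before and 0.776 after adjustment). It fell to 2.14 without Foxm1 HET replicate 2, which held 91.6% of the summed CPM of the gene, and rose to 9.23 without WT replicate 3. In the authors' normalized table the difference was smaller, at 2.12 on the log2 scale (limma p 0.325, exact permutation p 0.4).

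The level of Spi1 relative to another factor can be read within a library, free of its scaling. On log2 of TPM + 0.1 (a share of transcripts, which corrects for gene length), Spi1 exceeded Gfi1 by 6.91, 7.69 and 6.32 in WT and by 2.26, 0.79 and 4.34 in Foxm1 HET. All 3 Foxm1 HET libraries lay below all 3 WT libraries, and the mean ratio was 6.97 ± 0.69 (SD, n = 3) in WT against 2.47 ± 1.78 (SD, n = 3) in Foxm1 HET. The difference of -4.51 had a p of 0.1 in a two-sided exact permutation test, the smallest possible, or 0.15 after Benjamini-Hochberg adjustment over the 3 ratios computed. The same ratio with each other tested gene in place of Gfi1 was lower without overlap for 2.79% of 8194 genes. When each library was left out, the difference ran from -5.45 to -3.67.

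Spi1 over Irf8 went the other way. It was 2.01, 3.16 and 3.22 in WT against 4.30, 10.87 and 3.35 in Foxm1 HET, a difference of 3.38 (two-sided exact permutation test, p = 0.1, adjusted p = 0.15), and 1.29% of 8194 genes gave a higher ratio without overlap. The gap between the nearest libraries was narrow, the value of 10.87 rests on the library with 0 reads of Irf8, and without that library the difference was 1.03. With a pseudocount of 1 TPM in place of 0.1 the Irf8 ratios overlapped (difference 2.20, exact permutation p = 0.2) and the Gfi1 ratios did not (difference -3.17, exact permutation p = 0.1). Spi1 over Cebpa overlapped, with 7.22 to 11.62 in WT against 3.78, 10.87 and 1.56 in Foxm1 HET (exact permutation p = 0.3). Foxm1 HET replicate 2, where Cebpa had 0 reads, was the Foxm1 HET library within the WT range.

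**Figure D2:**
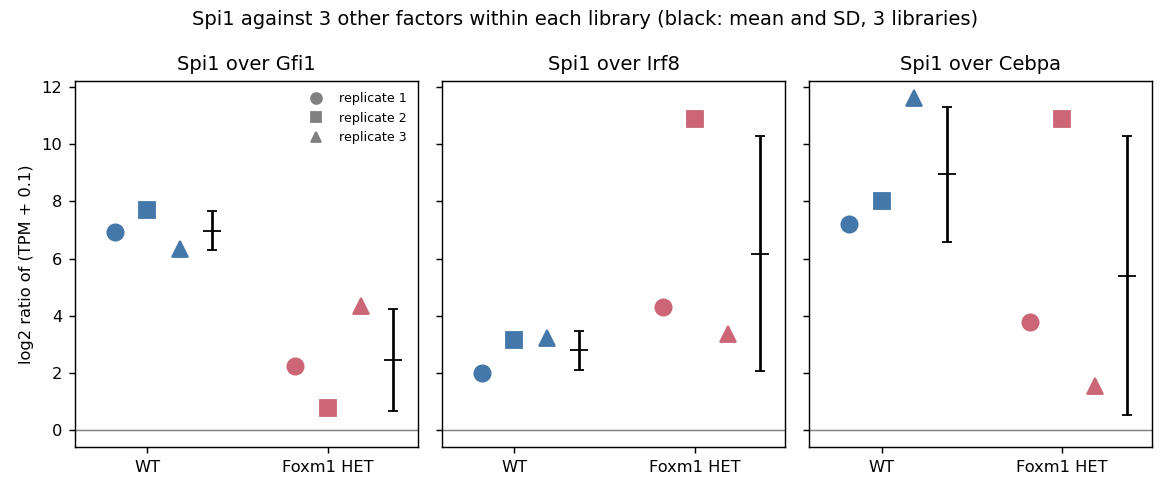
The panels plot the log2 ratio of Spi1 over Gfi1, Irf8 or Cebpa, from TPM + 0.1, in each library (blue, WT; red, Foxm1 HET), with mean and SD in black. The Gfi1 ratio is 6.32 or more in WT and 4.34 or less in Foxm1 HET.

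The C/EBP genes differed widely from library to library. Cebpg and Cebpa are neighbours on chromosome 7, transcribed away from each other with 62726 bases and 0 annotated genes of the count table between them. Cebpg (chr7:35046422-35056566, minus strand, 2 exon blocks) had 660, 38 and 21 reads in WT against 21857, 10 and 7695 in Foxm1 HET. Cebpa (chr7:35119293-35121928, plus strand, a single exon) had 4, 1 and 0 reads in WT against 250, 0 and 245 in Foxm1 HET. Both genes were high in Foxm1 HET replicates 1 and 3 and at their lowest, or among their lowest, in Foxm1 HET replicate 2, which overlapped the WT libraries. Their flanking genes were low or differently distributed. Pepd, on the far side of Cebpg, had 0, 2 and 0 reads in WT against 5, 0 and 41 in Foxm1 HET, and Gpatch1 had 216, 1 and 769 against 0, 0 and 376.

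For Cebpg the log2 CPM means were 2.07 ± 2.46 (SD, n = 3) in WT against 5.80 ± 4.49 (SD, n = 3) in Foxm1 HET. On the log2 scale Cebpg differed by 4.53 (SE 2.10, edgeR p 0.0309 before and 0.745 after adjustment). It stayed positive when each library was left out, from 3.24 without Foxm1 HET replicate 1 to 7.52 without WT replicate 1. In the authors' normalized table the difference was 3.95, with an unadjusted p of 0.0272 and an adjusted p of 0.885 from limma, where 2.04% of genes had an unadjusted p under 0.05. In Foxm1 HET replicate 1, Cebpg reached 382 TPM and lay above Myb and Spi1, at 183 and 109 TPM. Cebpa was too low for the test. Fitted without the filter on low counts, its log2 fold change was 5.71 (edgeR adjusted p 0.596), an estimate set against 5 WT reads in all.

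The 250 bases before the start site of these neighbouring genes are shown, together with those of Myb, the gene with the steadiest level, to set their promoter letters side by side. The sequences are from RefSeq on GRCm38.p6, written in the direction of transcription and ending at the base before the start site, at chr7:35119043-35119292 (plus strand) for Cebpa, chr7:35056567-35056816 (minus strand) for Cebpg and chr10:21160985-21161234 (minus strand) for Myb. Capitals mark exact matches, on either strand, to the CAAT box (CCAAT), a C/EBP site (TTGCNNAA), a forkhead core (TGTTTA), the CHR element of cell cycle genes (TTTGAA), a PU box (GAGGAA), the GC box (GGGCGG) or the TATA box (TATAAA).
Cebpa: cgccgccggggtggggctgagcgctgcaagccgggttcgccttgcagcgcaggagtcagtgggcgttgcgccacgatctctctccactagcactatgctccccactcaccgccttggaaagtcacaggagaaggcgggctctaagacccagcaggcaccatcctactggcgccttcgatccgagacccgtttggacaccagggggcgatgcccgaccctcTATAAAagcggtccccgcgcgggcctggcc
Cebpg: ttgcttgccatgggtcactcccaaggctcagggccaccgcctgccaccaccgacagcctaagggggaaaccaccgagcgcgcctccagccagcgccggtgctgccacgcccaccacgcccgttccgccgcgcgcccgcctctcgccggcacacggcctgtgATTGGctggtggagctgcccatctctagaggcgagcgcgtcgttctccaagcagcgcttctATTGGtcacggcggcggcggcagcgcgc
Myb: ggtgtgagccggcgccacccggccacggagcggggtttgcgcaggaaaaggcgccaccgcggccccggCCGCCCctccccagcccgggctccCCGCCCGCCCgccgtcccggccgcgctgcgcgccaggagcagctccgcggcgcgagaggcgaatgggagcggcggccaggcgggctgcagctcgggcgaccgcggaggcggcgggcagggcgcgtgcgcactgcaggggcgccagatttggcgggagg
Cebpa held a TATA box from 30 to 25 bases before its start site, a match that 12.4% of the 32851 promoter windows in RefSeq's table have. Cebpg held 2 CAAT boxes, from 89 to 85 and from 28 to 24 bases before its start, and 33.8% of windows have at least 1. Myb held 3 GC boxes, 2 of which overlap each other, and 32.7% of windows have at least 1. None of the 3 held a forkhead core, CHR element, PU box or C/EBP site as spelled here, which occur in 12%, 16%, 23.3% and 9.56% of windows. GC content was 66.4% for Cebpa, 70.8% for Cebpg and 81.2% for Myb, against a median of 52.4%. A match is a description of letters and not of binding. Promoter windows were found for 7 of the 10 genes, and Spi1, Cebpd and Cebpe had none.

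Cebpb (chr2:167688915-167690418, plus strand, a single exon) had 14, 3 and 1411 reads in WT against 395, 14 and 57 in Foxm1 HET. The library labelled WT replicate 3 held 85.8% of its summed CPM, and the other WT libraries stood below every Foxm1 HET library. The sign of the difference was therefore not fixed. The edgeR log2 fold change was -2.68 (SE 2.94, edgeR adjusted p 0.998), the difference of mean log2 CPM was 0.44, and the log2 fold change without WT replicate 3 was 3.55. Of the 50-base stretches of its transcript, 18.1% also occur in Tmem189, so the counts of Cebpb are uncertain.

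Cebpd (chr16:15887286-15889545, plus strand, a single exon) was seen in 3 libraries only, with 120, 107 and 0 reads in WT against 17, 0 and 0 in Foxm1 HET. The fold change, -4.39 on the log2 scale (SE 3.22, edgeR adjusted p 0.971) kept its sign without each library, from -9.16 to -3.71, and was largest in size without Foxm1 HET replicate 1. In the authors' normalized table it was -1.47 (limma p 0.113). Of its exon bases, 14.1% also belong to Spidr. Cebpe (chr14:54710363-54712174, minus strand, 2 exon blocks) had 104 reads in WT replicate 3 and 0 in the other 5 libraries. Pooled over libraries and set against 3 reads in Foxm1 HET, its reads were at least 35.3-fold more frequent in WT, counting error only. This rests on WT replicate 3 alone, and the other WT libraries also had 0 reads. It is therefore not a limit on the difference between genotypes.

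WT replicate 3, which held the highest level of Spi1, Irf8, Cebpb and Cebpe, also had the highest summed level of neutrophil markers, 15759 CPM. Of 12 monocyte and macrophage markers 11 were found, led by Lyz2, and their summed levels were 4256, 2152 and 4680 CPM in WT against 4817, 1756 and 778 CPM in Foxm1 HET, and C1qa, C1qb and Cd14 were at 0 in all libraries. The part of such cells in the levels of these genes was not tested.

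Which C/EBP gene dominated differed from library to library. In the summed TPM of the 5 genes, Cebpg made up 68.7% in WT replicate 1, 92.7% in Foxm1 HET replicate 1 and 92.6% in Foxm1 HET replicate 3. Cebpd led in WT replicate 2 with 81.9%, and Cebpb led in WT replicate 3 with 91.4% and in Foxm1 HET replicate 2 with 81.4%. The sum itself was 22.2, 5.83 and 95.7 TPM in WT against 413, 1.72 and 164 TPM in Foxm1 HET. In Foxm1 HET replicate 2 it came from 24 reads, of which 14 were of Cebpb, a share of reads of 58.3% (95% exact Clopper-Pearson interval 36.6% to 77.9%, counting error only). The mean share of Cebpg was 27.7% ± 36.1 (SD, n = 3) in WT against 68.0% ± 42.8 (SD, n = 3) in Foxm1 HET, with libraries of both genotypes intermixed (exact permutation p = 0.2, or 0.667 adjusted over the 5 shares). This was the smallest p among the 5 shares.

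**Figure D3:**
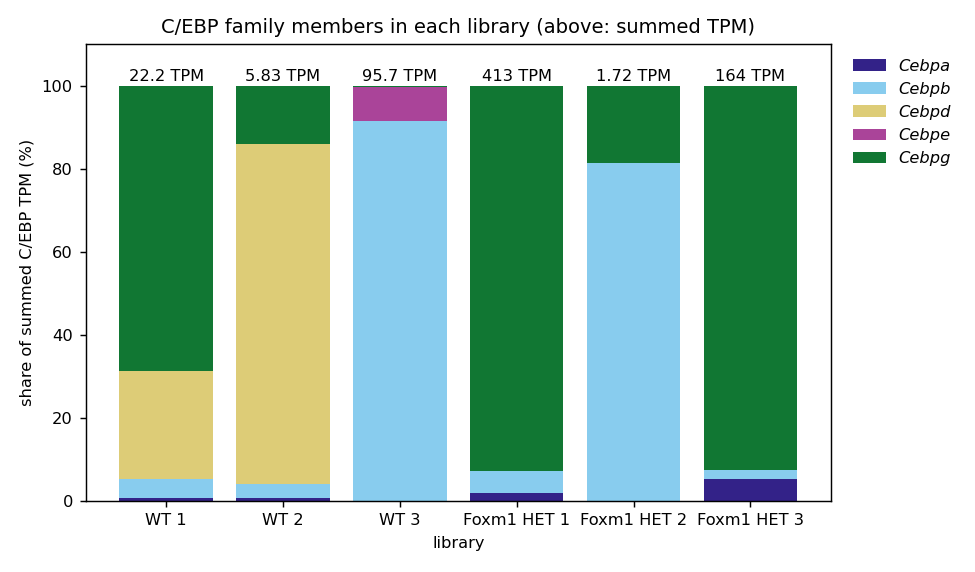
Stacked bars give the share in percent of each C/EBP gene in the summed C/EBP TPM of a library, with the sum written above. Cebpg (green) fills most of WT replicate 1 and Foxm1 HET replicates 1 and 3, Cebpd (yellow) most of WT replicate 2, and Cebpb (light blue) most of the remaining libraries.

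Myb (chr10:21124930-21160984, minus strand, 16 exon blocks) was the most abundant member per length in 4 of the 6 libraries and the steadiest. It had 7507, 15156 and 4498 reads in WT against 8404, 23214 and 13934 in Foxm1 HET. Per length it ranked between the 96.2nd and 99.6th percentile of all genes in a library, and the SD of its log2 CPM over the 6 libraries, 1.48, was exceeded by most genes tested, whose median was 3.20. Foxm1 HET replicate 2 stood out at 11.81 log2 CPM, while the other Foxm1 HET libraries lay within or below the WT range. The log2 fold change was 1.68 (SE 1.39, edgeR adjusted p 0.982). Without Foxm1 HET replicate 2 it turned to -0.59.

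Id2 (chr12:25093799-25096092, minus strand, 3 exon blocks) was low, with 45, 3 and 1 reads in WT against 44, 123 and 40 in Foxm1 HET. WT replicate 1, at 1.08 log2 CPM, stood above Foxm1 HET replicates 1 and 3 at 0.31 and 0.05. The log2 fold change was 3.23 (SE 3.22, edgeR adjusted p 0.998), and it was 0.55 without Foxm1 HET replicate 2, which held 81.4% of the summed CPM. The authors' normalized table gave 0.82 (limma p 0.666).

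Ordered by mean log2 TPM, Myb and Spi1 led in both genotypes, at 7.74 ± 0.93 and 6.25 ± 1.78 (SD, n = 3) in WT and 8.60 ± 1.18 and 6.33 ± 1.48 (SD, n = 3) in Foxm1 HET. Irf8 had rank 3 in WT and 8 in Foxm1 HET, whereas Gfi1 had rank 8 in WT and 4 in Foxm1 HET. Apart from Spi1 and Irf8 in WT, whose libraries did not overlap, every pair of neighbours in either order overlapped, so the order below Spi1 is not resolved by 3 libraries.

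**Figure D4:**
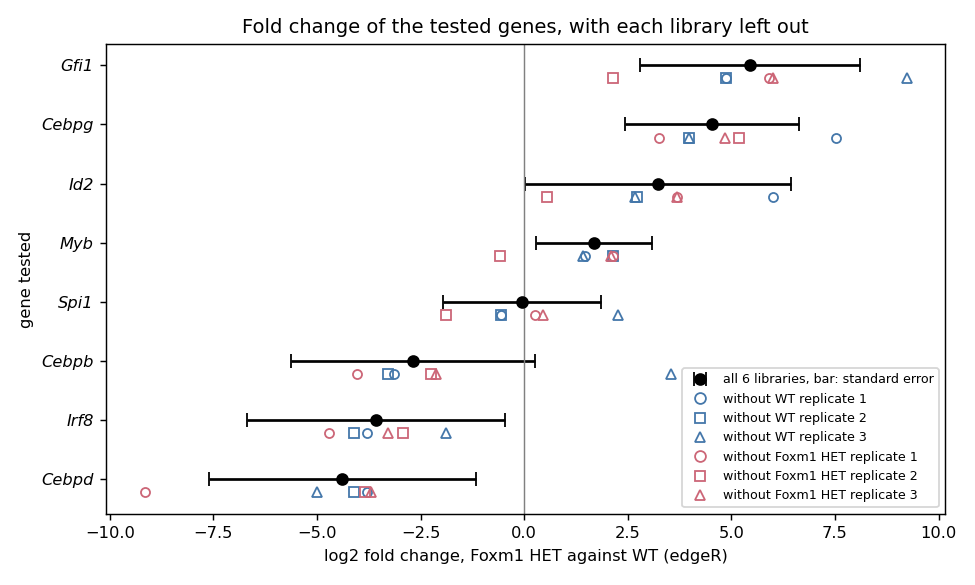
Black points give the log2 fold change of each of the 8 tested genes, Foxm1 HET against WT, with its standard error, and open symbols give the fit without a library. The symbols of Spi1, Cebpb and Myb fall on both sides of 0, and those of Gfi1, Cebpg, Id2, Irf8 and Cebpd stay on the side of the full fit.

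Genes that work with these factors were counted on 6 lists, and 0 of their tested genes were called by edgeR after adjustment, with 4 at an unadjusted p under 0.05. Of 25 tested targets of PU.1, 20 were lower and 5 higher in Foxm1 HET, with a median log2 fold change of -0.88. Over all genes tested 54.6% were lower and the median was -0.26. This background for all the lists also moved when a library was left out. The median of all genes was 0.25, 0.23 and 0.15 without WT replicates 1, 2 and 3. It was -0.46, -0.30 and -0.53 without Foxm1 HET replicates 1, 2 and 3. The PU.1 target median ran from -0.17 without WT replicate 1 to -1.26 without WT replicate 2, and it was -0.49 without Foxm1 HET replicate 3, where that of all genes was -0.53. With RLE scaling it was -0.28 against -0.13 for all genes. Foxm1 HET replicate 3 also had the lowest summed monocyte and neutrophil markers, 778 and 1587 CPM. The monocyte markers Lyz2, Cd68 and Mpeg1 are themselves on the list of PU.1 targets, so the monocyte sum is not independent of that list. The part of such cells in the counts of the PU.1 targets was not tested. Lsp1, a leukocyte actin-binding protein, had 4501, 20860 and 37652 reads in WT against 3208, 28 and 183 in Foxm1 HET. Every Foxm1 HET library of Lsp1 lay below every WT library, and the log2 fold change was -5.23 (SE 1.72, edgeR p 0.00232 before and 0.213 after adjustment). Itgb2, the β chain of leukocyte integrins, had 10159, 3435 and 1774 reads in WT against 5175, 30069 and 1965 in Foxm1 HET, and overlapped.

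Of 13 tested granule genes that C/EBPα and C/EBPε activate, 5 were higher and 8 lower, with a median of -0.66 and 0 at an unadjusted p under 0.05. The median was 0.26 without WT replicate 3, 0.07 or -1.37 when Foxm1 HET replicate 3 or 2 was left out, and -0.14 with RLE scaling, so it had no stable sign. Prtn3, the primary granule proteinase 3, had 13, 71 and 2 reads in WT against 1197, 365 and 5247 in Foxm1 HET, higher in each (edgeR p 0.0540 before and 0.844 after adjustment). S100a9, a subunit of calprotectin, had 22202, 24207 and 52419 reads in WT against 20113, 5174 and 3150 in Foxm1 HET, where scaled levels were lower in each library (log2 fold change -1.93, adjusted p = 0.961). Foxm1 HET replicate 3, the lowest library for S100a9, was also the lowest in summed neutrophil markers, at 1587 CPM. S100a9 is itself one of these markers, and all of them are on this granule list, so the sum is not a separate observation. The part of mature cells in this result was not tested.

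Among 8 tested partners of C/EBP proteins, 3 were higher and 5 lower, with a median of -0.50 that turned to 0.19 with RLE scaling and 0.35 without WT replicate 2 and was -1.98 without Foxm1 HET replicate 2 and -1.30 without WT replicate 3. Trib2, a pseudokinase that brings C/EBPα to its degradation, had 1, 0 and 0 reads in WT against 35, 239 and 718 in Foxm1 HET (edgeR p 0.0220 before and 0.659 after adjustment). Atf3, a stress-induced zipper factor, had 6104, 6228 and 4524 reads in WT against 1436, 157 and 34 in Foxm1 HET (log2 fold change -3.73, SE 1.97, edgeR adjusted p 0.854). Both genes separated the genotypes, as did 4 of the 8 in all, 2 in each direction, where 8.68% of all genes tested did.

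Of 31 other tested regulators of myeloid and early lineage choice, 14 were higher and 17 lower, with a median of -0.08 that turned to 0.24 with RLE scaling and ran from -0.36 to 0.23 with a library left out. Nfil3, a zipper factor of innate lymphoid development, had 0, 10 and 0 reads in WT against 96, 489 and 399 in Foxm1 HET (edgeR p 0.0435 before and 0.786 after adjustment). Gfi1b, the erythroid and megakaryocytic relative of Gfi1, had 130, 7 and 9 reads in WT against 6205, 323 and 1478 in Foxm1 HET (log2 fold change 5.20, SE 2.81, edgeR adjusted p 0.886). Unlike Gfi1, Gfi1b was higher in each Foxm1 HET library. Of the other regulators, 2 were higher without overlap, Nfil3 and Gfi1b, where 4.12% of all genes tested were. Lower without overlap were 4, Runx1, Etv6, Irf2 and Gata2, where 4.55% of all genes tested were. DESeq2 gave adjusted p values of 0.00567 for Nfil3, 0.0337 for Gfi1b, 0.00052 for Trib2, 0.0109 for Prtn3, 0.0332 for Lsp1 and 0.302 for Atf3, and it called 3.13% of the 6195 genes to which it gave an adjusted p.

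Of 3 tested E proteins, 2 were higher and 1 lower. Tcf3 had 848, 28200 and 5 reads in WT against 1644, 7 and 2173 in Foxm1 HET, with a log2 fold change of -3.74 (edgeR p 0.0402 before and 0.776 after adjustment), and WT replicate 2 held by far the most reads. Tcf12 had 1509, 1104 and 7916 reads against 3183, 5618 and 10508. Id1, Id3 and Id4 were too low for the test. Of 12 tested cytokine receptors, 5 were higher and 7 lower, with a median of -0.30 that turned to 0.21 without WT replicate 1 and 0.23 without WT replicate 3, fell to -0.88 or -0.64 when Foxm1 HET replicate 2 or 1 was left out, and was near 0 with RLE scaling. Csf3r, the G-CSF receptor and a classical C/EBP target, had 6584, 3693 and 29283 reads in WT against 3856, 584 and 5733 in Foxm1 HET, with scaled levels lower in each (log2 fold change -2.80, SE 1.60, edgeR adjusted p 0.906). Csf2ra, part of the GM-CSF receptor, had 1127, 484 and 34743 reads in WT against 5741, 680 and 144 in Foxm1 HET, and overlapped.

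**Figure D5:**
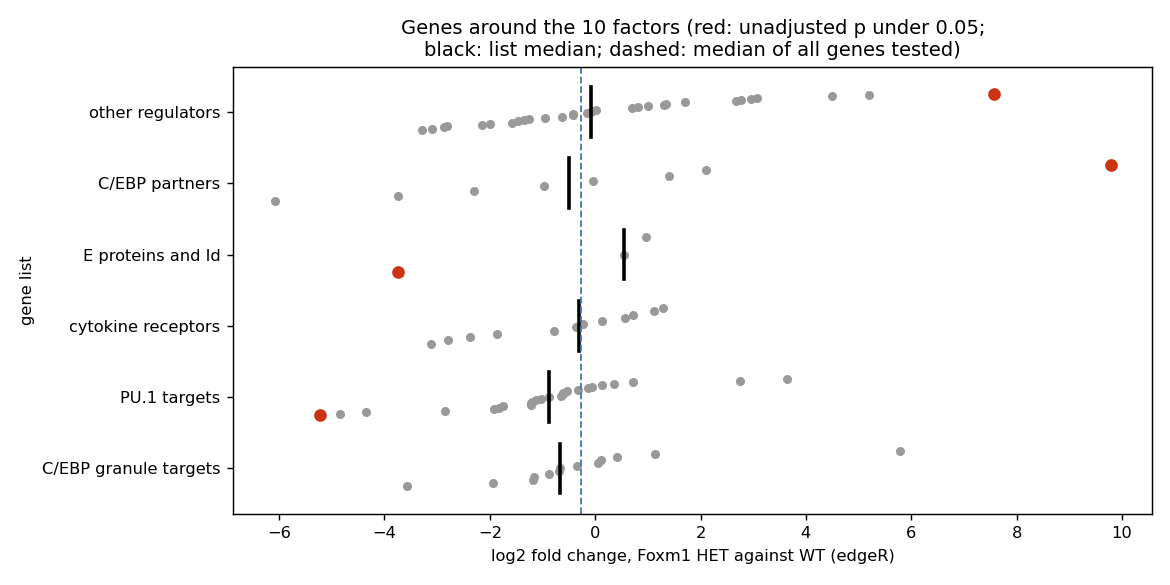
Points give the log2 fold change of each tested gene of 6 lists, Foxm1 HET against WT, with genes of unadjusted p under 0.05 in red, list medians as black bars and the median of all genes tested, -0.26, as a dashed line. The list of PU.1 targets has most of its points left of the dashed line, with a median of -0.88.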

How the data were processed

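RNA-Seq counts and a normalized table of 3 WT and 3 Foxm1 HET LT-HSC libraries were analysed. According to the methods, single-end reads were trimmed and mapped by STAR 2.7.2b onto GRCm38. The authors deposited raw read counts for 27179 genes, and the counting program and its use of strand are not given in the sources used here. The authors also deposited a normalized table on a log2 scale, whose values share 1 distribution. Among the processing tools limma is named without a version, and how the normalized values were made is not stated further. Symbols came from that table and, for 13383 further genes, from RefSeq.

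Counts were tested with edgeR 4.0.16 in R 4.3.3 (default filter, TMM, quasi-likelihood test, Benjamini-Hochberg adjustment over 8195 genes). SEs (standard errors) were taken as fold change on the log2 scale over the root of F. Log2 CPM used a prior count of 2, and TPM was computed from counts and the deposited exon lengths. The edgeR, DESeq2 and limma-voom fits were run on simulated counts with far less spread between libraries than these data have. That run checks the code and does not show how the fits perform at the spread seen here. Library totals ran from 14573002 to 25798509 reads, so the spread between libraries sets the precision. Alternatives were scaling by RLE, upper quartile or library size, other filters, DESeq2 1.42.0, limma 3.58.1 (voom, and on the normalized table), a replicate block and each library left out. Named genes were all 10 members and, per list, those with the smallest p under a fixed rule. The members, lists and tests were chosen with earlier results of these data known.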

Additional observations from a re-analysis of the deposited data

How the results depend on the processing

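Under the 15 alternative fits, 0 of the members that were given an adjusted p had one under 0.05, and between 0 and 2 had an unadjusted p under 0.05. DESeq2 gave no adjusted p to Cebpb, Gfi1, Myb and Id2. The filter of at least 10 counts in every library left 3 members to test. Over all genes the number called, 27 with edgeR, was 10 with RLE scaling, 43 with upper-quartile scaling, 7 with library size only (6 higher and 1 lower), 0 with at least 10 counts in every library (157 at an unadjusted p under 0.05), 194 with DESeq2, 4 with limma-voom and 1 with limma on the normalized table. With each library left out it ran from 0 to 29, and it was 0 without WT replicate 1 (615 at an unadjusted p under 0.05), WT replicate 2 (549) or Foxm1 HET replicate 2 (626) and 1 without WT replicate 3. The replicate block gave 0 (108 at an unadjusted p under 0.05). Deviations of same-numbered libraries correlated at 0.016, -0.025 and -0.069, and those of differently numbered libraries at -0.025 to 0.055. With libraries so far apart, these values cannot show whether the numbers follow the pairs of mice. Scaling moved the median log2 fold change of all genes by 0.13 (RLE), 0.40 (upper quartile) and 0.36 (library size). Relative to that median, Spi1 was at 0.20 with TMM and at -0.45 with library size.

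The number of members not overlapping, 0 with edgeR's log2 CPM, was 1 with RLE scaling, 1 in the normalized table, Irf8 in both, and 1 to 3 with a library left out, where the share of all genes not overlapping also rose, from 8.68% to between 15% and 21.6%. Of 92 listed genes tested, the 4 at an unadjusted p under 0.05 (494 of all genes) became 12 with DESeq2 (829), 13 with limma-voom (271), 1 with the replicate block (108), 12 of 104 with limma on the normalized table (249) and 2 to 5 with a library left out (433 to 626). The log2 fold change of Spi1 changed sign with RLE (0.75), upper quartile (0.31), DESeq2 (0.75) and the block (0.58), and ran from -1.89 to 2.26 with a library left out. That of Cebpb was 0.66 with limma-voom and 2.37 with the block, and ran from -4.03 to 3.55. Myb was -0.17 with limma-voom and ran from -0.59 to 2.13. The difference in mean level of Cebpb was -0.25 in the normalized table. The difference in its share of the C/EBP sum, -3.54 percentage points, ran from -29.4 to 25.6 with a library left out. Cebpd, Cebpg, Gfi1, Irf8 and Id2 kept their sign in every alternative that could test them. Where a result moved, the cause was not tested unless fewer genes or libraries entered the fit.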

Other observations

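Marker lists of other blood cells were measured beside the 10 factors. Their sums are CPM of the unscaled library total, and the TMM factors ran from 0.453 to 1.67 between libraries. The ranges of dendritic and erythroid markers, which lie apart between genotypes below, do not stay apart on the scaled total. The gene named with a list had the most reads over the libraries of a genotype and need not lead in each library. Dendritic cell markers summed to between 67.6 and 127 CPM in WT and between 153 and 525 CPM in Foxm1 HET, with different genes behind the sums. Siglech had 1942 reads in Foxm1 HET replicate 1, Xcr1 1207 and H2-Aa 1105 in Foxm1 HET replicate 2, and the cytokine receptor Flt3 12648 in Foxm1 HET replicate 3 but 6 in Foxm1 HET replicate 2. Itgax had 0, 203 and 755 reads in WT against 2, 2 and 0, and Batf3 was at 0 in all libraries. Erythroid markers, with Hbb-bs in WT and Car1 in Foxm1 HET, summed to between 72.2 and 155 CPM in WT and between 195 and 301 CPM in Foxm1 HET, with Hba-a1 at 0 throughout. Basophil and mast cell markers, led by Mcpt8 in WT and Cpa3 in Foxm1 HET, ran from 6.52 to 536 CPM and from 0.233 to 57.0 CPM. Megakaryocyte markers, led by Vwf, ran from 15.4 to 381 CPM in WT and from 4.60 to 236 CPM in Foxm1 HET. B cell markers, led by Ighm, ran from 252 to 2011 CPM and from 22.6 to 334 CPM, with Cd79a and Ebf1 at 0. T and NK cell markers, led by Cd4, ran from 0.0435 to 22.8 CPM and from 17.8 to 124 CPM, and endothelial and stromal markers, led by Pecam1, from 0.782 to 63.7 CPM and from 37.4 to 136 CPM.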
